A study of Mus musculus with 9 samples.

Results

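The 10 mature miRNAs described here are best known from white blood cells: both arms of miR-142a, miR-342 and miR-511, together with miR-150-5p, miR-223-3p, miR-155-5p and miR-146a-5p. They were chosen by name, with earlier results of these data known, and all 10 were among the 860 mature miRNAs listed in the deposited files. The samples were 9 small RNA libraries of subcutaneous adipose tissue, each from 1 mouse: 3 labelled WT, 3 labelled Hete KO and 3 labelled Homo KO. The title of the series gives the knocked-out gene as AGO1, an Argonaute protein that binds mature miRNAs, the cells that lost it as endothelial, and the WT mice as littermates. All 9 mice were 24 weeks old and had eaten a high-fat, high-sucrose diet from week 8 of life, 16 weeks in all, so every library, WT included, is of obesogenic-diet fat. The sources used here give no Cre driver, strain or sex. AGO1 itself was not measured in these files, so the genotype labels were taken as given.

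A miRNA hairpin is cut by Dicer into a short duplex, and either strand of it, the 5p or the 3p arm, can be loaded into an Argonaute protein while the other is degraded. The 2 arms of 1 hairpin come from the same transcript but carry different seeds (bases 2 to 8), the part that pairs with target mRNAs. In obesity, macrophages and lymphocytes accumulate in white fat, and miRNAs that are restricted to blood cells can be read there as a trace of such cells. Each library is of whole tissue, so fewer cells of a type and less RNA per cell cannot be told apart.

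Mature sequences from RefSeq (GRCm38.p6) matched 8 of the 10 members, and they are shown with the seed in capitals because the comparison of arms below is a comparison of different seeds:
miR-142a-5p: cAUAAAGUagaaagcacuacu
miR-142a-3p: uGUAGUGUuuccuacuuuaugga
miR-342-5p: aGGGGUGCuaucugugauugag
miR-342-3p: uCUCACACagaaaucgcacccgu
miR-223-3p: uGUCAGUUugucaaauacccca
miR-155-5p: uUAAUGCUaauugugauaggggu
miR-146a-5p: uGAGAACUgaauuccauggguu
miR-511-3p: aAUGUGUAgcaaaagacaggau

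These 8 sequences have 8 different seeds. Of the 698 listed miRNAs with a RefSeq sequence, the only other one that carries any of these seeds is miR-146b-5p, which shares that of miR-146a-5p. The arms lie in their hairpins as follows, with both arms in capitals, because these are the hairpins on which the results turn:
Mir142: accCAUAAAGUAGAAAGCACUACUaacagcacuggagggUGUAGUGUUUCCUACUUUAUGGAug
Mir342: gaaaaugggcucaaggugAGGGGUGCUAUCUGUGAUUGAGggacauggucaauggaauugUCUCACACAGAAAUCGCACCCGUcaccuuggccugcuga

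Mir142 lies at chr11:87756864-87756927 on the plus strand, in an intron of the long noncoding RNA gene Mir142hg (GENCODE vM21, GRCm38). Mir342 lies at chr12:108658620-108658718 on the plus strand, in an intron of Evl, which encodes a regulator of actin filaments. Mir511 (chr2:14261003-14261081, plus strand) lies in an intron of Mrc1, the gene of the macrophage mannose receptor. Mir155 (chr16:84714140-84714204, plus strand) overlaps exonic sequence of Mir155hg, its host transcript, and Mir223 (chrX:96242817-96242926, plus strand) overlaps an exon of the noncoding gene F630028O10Rik. Mir146 (chr11:43374397-43374461, minus strand) and Mir150 (chr7:45121757-45121821, plus strand) overlap no other annotated gene.

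The deposited values are on a log2(x + 1) scale and look quantile-normalized: the highest value is the same in every library, and a value is in effect a rank within the library. Read depth is unknown, and a count of miRNAs at the lowest value of a library, from 63 to 152, is the sign of depth that remains. This count was 70, 104 and 63 in WT, 101, 152 and 105 in Hete KO and 116, 141 and 102 in Homo KO. It was mostly higher in the knockouts, so depth cannot be fully told apart from genotype. Levels are log2(x + 1) throughout, and a log2 fold change is a difference of group means on this scale, which understates the change of rare miRNAs. Whether the values are per length is not stated, and ligation bias differs between sequences, so an order of levels is an order of these values and not of molecules. Of the 860 miRNAs, 489 were abundant enough to be tested, and all 10 members were among them. The mean level of 4 skeletal muscle miRNAs ranged from 7.56 to 13.73 in WT, from 8.76 to 14.35 in Hete KO and from 6.17 to 11.68 in Homo KO, and it was highest in Hete KO replicate 2 and WT replicates 2 and 1. Muscle miRNA levels therefore differed between mice of 1 genotype, and their part in the results below was not tested beyond the values given beside them.

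All 10 members were detected above the lowest value in all 9 libraries. Over the 9 libraries the highest mean level was that of miR-150-5p (12.54 ± 0.43, SD, n = 9 mice), followed by miR-146a-5p (12.39 ± 0.29), miR-223-3p (12.20 ± 0.31) and miR-142a-3p (12.03 ± 0.46). These 4 lie within 1 SD of their neighbours and their order is not resolved. miR-142a-5p came next at 11.15 ± 0.63, then miR-155-5p at 10.29 ± 0.22 and miR-342-3p at 9.75 ± 0.56, and each of these 3 overlapped the one above it. miR-511-3p at 7.63 ± 0.24 stood below all libraries of the members above it and above all libraries of miR-342-5p (5.28 ± 0.80) and miR-511-5p (4.60 ± 0.64). By rank, miR-150-5p stood between 53 and 79 of 860 in every library, and miR-511-5p between 360 and 488.

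**Figure D1:**
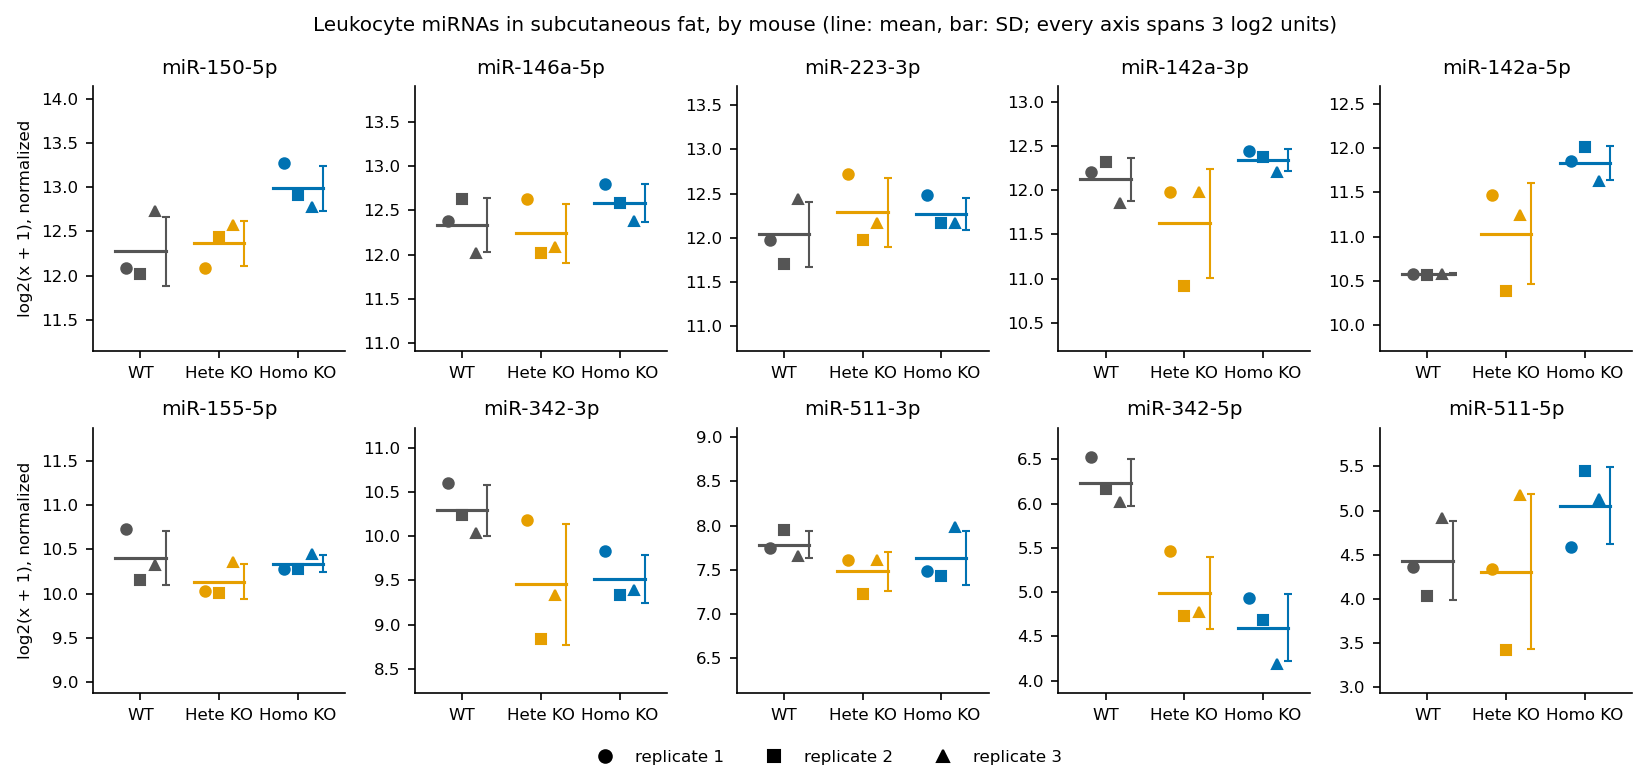
Level of each of the 10 leukocyte miRNAs (y axis, normalized log2(x + 1), every axis spanning 3 log2 units) in the 3 mice of each genotype (x axis), with the mean as a line and the SD as a bar. The 3 Homo KO mice lie above the 3 WT mice for miR-142a-5p (11.63 to 12.02 against 10.56 to 10.58) and below them for miR-342-5p (4.18 to 4.94 against 6.02 to 6.53).

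The first comparison asks whether leukocyte miRNAs differ between Homo KO and WT fat. miR-142a-5p rose 2.39-fold and miR-342-5p fell to 0.321 of its WT level, while the other 8 members did not pass the test (limma, Benjamini-Hochberg adjusted over all 489 miRNAs, threshold 0.05). The 2 called members are 2 of 10, against 3.27% of all 489 tested miRNAs called in this comparison. The members were chosen with earlier results of these data known, so such shares describe the list and test nothing. For 4 of 10 members the 3 Homo KO mice did not overlap the 3 WT mice, against 32.7% of all tested miRNAs, so that count is close to the background. The median log2 fold change was 0.22 over the 10 members and 0.07 over all tested miRNAs, with 6 members positive and 4 negative. The group therefore did not move one way.

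miR-142 is restricted to blood cells, and both of its arms are known to be functional. Levels of miR-142a-5p in WT replicates 1, 2 and 3 were 10.58, 10.56 and 10.58, against 11.47, 10.39 and 11.24 in Hete KO and 11.85, 12.02 and 11.63 in Homo KO. All 3 Homo KO mice were above all WT and Hete KO mice, while Hete KO replicate 2 was the lowest of the 9. The log2 fold change for Homo KO against WT was 1.26 ± 0.25 (SE, limma, adjusted p = 0.0314). The 3 WT values, at ranks 113 and 114 of 860, are all but identical, a spread (SD 0.01) smaller than that of any other member in any genotype.

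The call of miR-142a-5p ended when any of 7 libraries was left out, namely each WT mouse (adjusted p = 0.12, 0.0753 and 0.0537 without replicates 1, 2 and 3), each Homo KO mouse (adjusted p = 0.0709, 0.128 and 0.105) or Hete KO replicate 3 (adjusted p = 0.0572), with log2 fold changes of 1.17 to 1.36. It also ended on adjusting for mean muscle miRNA level (1.08, adjusted p = 0.0935), without the 3 libraries highest in muscle miRNAs (1.25, adjusted p = 0.0746) and on adjusting for how many miRNAs sat at a library's lowest value (1.56, adjusted p = 0.0862).

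miR-142a-3p was at 12.21, 12.32 and 11.85 in WT, at 11.98, 10.92 and 11.98 in Hete KO and at 12.44, 12.38 and 12.21 in Homo KO. WT and Homo KO overlapped, and the log2 fold change was 0.22 ± 0.27 (SE, limma, adjusted p = 0.632). Against Hete KO the 3 Homo KO mice were higher without overlap (0.72 ± 0.27), and that comparison did not pass either (adjusted p = 0.593). Hete KO replicate 2 was again the lowest library, as it was for the 5p arm.

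The difference between the arms was then taken within each library, as the log2 level of the 5p arm minus that of the 3p arm. A change that is the same log2 step in both arms cancels in this difference. On these rank-like values, a shared change of the RNA need not be the same step for arms at different levels. The difference was fitted over all 141 hairpins whose 5p and 3p arms were both tested. For miR-142a the difference was -1.63, -1.75 and -1.27 in WT, -0.51, -0.52 and -0.73 in Hete KO and -0.59, -0.36 and -0.57 in Homo KO. The 6 knockout mice did not overlap the 3 WT mice, and Hete KO replicate 2, the lowest library for each single arm, lay with the other knockout mice. The 3p arm was the higher arm in all 9 libraries, by more in WT than in either knockout. As a share of both arms on the back-transformed scale, the 5p arm was 25.5% ± 3.34 in WT, 40.0% ± 2.07 in Hete KO and 41.3% ± 2.14 in Homo KO (SD, n = 3 mice each).

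**Figure D2:**
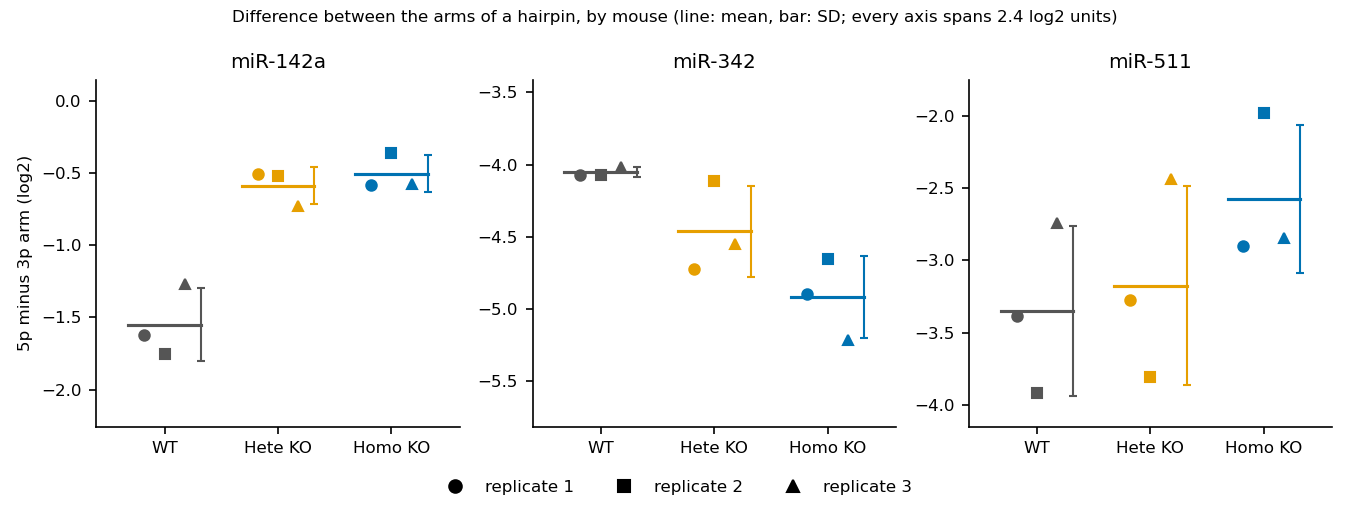
Difference between the arms of a hairpin (y axis, log2 of the 5p arm minus log2 of the 3p arm, every axis spanning 2.4 log2 units) in the 3 mice of each genotype (x axis), with the mean as a line and the SD as a bar. For miR-142a the WT mice lie between -1.75 and -1.27 and the 6 knockout mice between -0.73 and -0.36.

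For Homo KO against WT, the arm difference of miR-142a changed by 1.04 ± 0.17 (SE, limma over the 141 hairpins, adjusted p = 0.0051). It was the only hairpin called, so that 1 of the 3 hairpins with both arms among the members was called (33.3%), against 0.709% of all 141. The list was made with earlier results of these data known, so this share too is only a description. For Hete KO against WT the arm difference of miR-142a changed by 0.96 ± 0.17 (adjusted p = 0.0114) and again was the only one called, 0.709% of the 141. The WT mice are shared by these 2 comparisons, so they are not independent. In both it had the smallest p of all hairpins. Homo KO and Hete KO differed by 0.08 ± 0.17 (adjusted p = 0.887). No hairpin was called between them (limma, 0% of 141, with 4 at an unadjusted p under 0.05, none of them a member hairpin), and no member hairpin was without overlap there, against 11.3% of all hairpins. Groups without overlap were found for 2 of the 3 member hairpins in each comparison with WT (66.7%), miR-142a and miR-342, against 20.6% of all hairpins for Homo KO and 15.6% for Hete KO.

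The Homo KO call of the miR-142a arm difference ended without Homo KO replicate 2 (0.97, adjusted p = 0.0556) and without the 3 libraries highest in muscle miRNAs (0.76, adjusted p = 0.237), a setting that leaves 1 WT mouse, which is assumed to vary like the mice of the other groups. The Hete KO call ended without WT replicate 1 (0.93, adjusted p = 0.0688), without WT replicate 2 (0.86, adjusted p = 0.0508), without those 3 libraries (0.65, adjusted p = 0.576), with only the 2 groups in the fit (adjusted p = 0.0904), with no variance trend (adjusted p = 0.0776) and on adjusting for how many miRNAs sat at a library's lowest value (0.98, adjusted p = 0.154). WT replicate 3, the WT mouse with the least muscle miRNA, had the smallest arm difference of the WT mice (-1.27), and Hete KO replicate 2, with the most, was at -0.52. With the single-hairpin exact permutation test each of these comparisons of miR-142a with WT gave a two-sided p of 0.1, the smallest that 3 mice against 3 can give, and an adjusted p of 0.225 over the 9 comparisons of 3 hairpins.

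**Figure D3:**
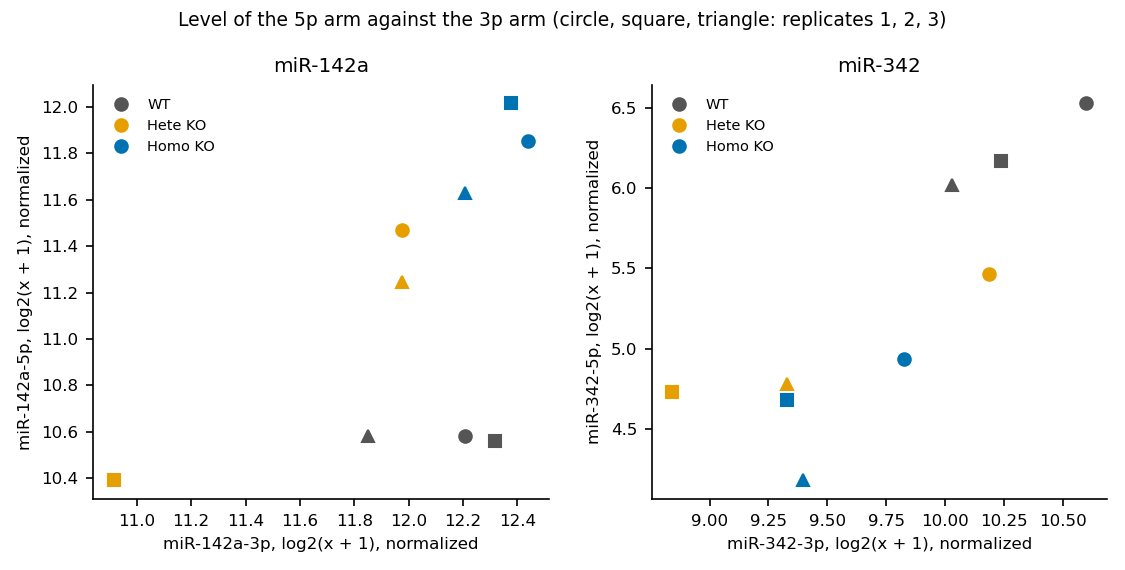
Level of the 5p arm (y axis) against the 3p arm (x axis), both in normalized log2(x + 1), for miR-142a and miR-342 in the 9 libraries, with color for the genotype and shape for the replicate. For miR-142a the 3 WT mice lie at 10.56 to 10.58 on the 5p axis while their 3p arm spans the range of 11.85 to 12.32, and for miR-342 both arms are highest in WT replicate 1.

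miR-342 is found in lymphoid and myeloid cells, and its 3p arm is the abundant one. miR-342-5p was at 6.53, 6.17 and 6.02 in WT, at 5.46, 4.73 and 4.78 in Hete KO and at 4.94, 4.68 and 4.18 in Homo KO. All 6 knockout mice were below all WT mice, and the knockouts overlapped each other. For Homo KO against WT the log2 fold change was -1.64 ± 0.29 (SE, limma, adjusted p = 0.0283). The call ended without WT replicate 1 or 2 (adjusted p = 0.12 and 0.0624), without Homo KO replicate 1, 2 or 3 (adjusted p = 0.0503, 0.115 and 0.105), on adjusting for mean muscle miRNA level (-1.54, adjusted p = 0.0935), without the 3 libraries highest in muscle miRNAs (-1.42, adjusted p = 0.252) and on adjusting for how many miRNAs sat at a library's lowest value (-1.55, adjusted p = 0.194). This arm ranked between 275 and 442 of 860.

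miR-342-3p was at 10.60, 10.24 and 10.03 in WT, at 10.19, 8.84 and 9.33 in Hete KO and at 9.83, 9.33 and 9.40 in Homo KO. The Homo KO mice were below the WT mice without overlap, while Hete KO replicate 1 lay among the WT mice. The log2 fold change was -0.77 ± 0.32 for Homo KO against WT (SE, limma, adjusted p = 0.192) and -0.84 ± 0.32 for Hete KO against WT (adjusted p = 0.239), so that both arms had negative values in both knockouts. With sample weights this arm passed in both, at -0.93 in Homo KO (adjusted p = 0.0305) and -1.01 in Hete KO (adjusted p = 0.046). Over the 21 alternatives its log2 fold change ranged from -0.93 to -0.35 in Homo KO and from -1.20 to -0.27 in Hete KO.

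The arms of miR-342 were -4.07, -4.07 and -4.01 apart in WT, -4.72, -4.11 and -4.55 in Hete KO and -4.89, -4.65 and -5.21 in Homo KO (5p minus 3p, log2). The 5p arm was thus 5.62% ± 0.12 of both arms in WT, 4.27% ± 0.90 in Hete KO and 3.11% ± 0.61 in Homo KO (SD, n = 3 mice each). The change against WT was -0.87 ± 0.26 in Homo KO (SE, limma over the 141 hairpins, adjusted p = 0.131) and -0.41 ± 0.26 in Hete KO (adjusted p = 0.587). Neither passed. The Homo KO value passed with sample weights (-0.86, adjusted p = 0.0499) and on adjusting for how many miRNAs sat at a library's lowest value (-1.20, adjusted p = 0.0395). Over 20 alternatives it ranged from -1.20 to -0.57, so whether the arms of miR-342 changed unequally depends on the setting. The sign was opposite to that of miR-142a, in which the share of the 5p arm was higher in the knockouts. In the exact permutation test both comparisons of miR-342 with WT gave a two-sided p of 0.1 (adjusted p = 0.225), the smallest possible.

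**Figure D4:**
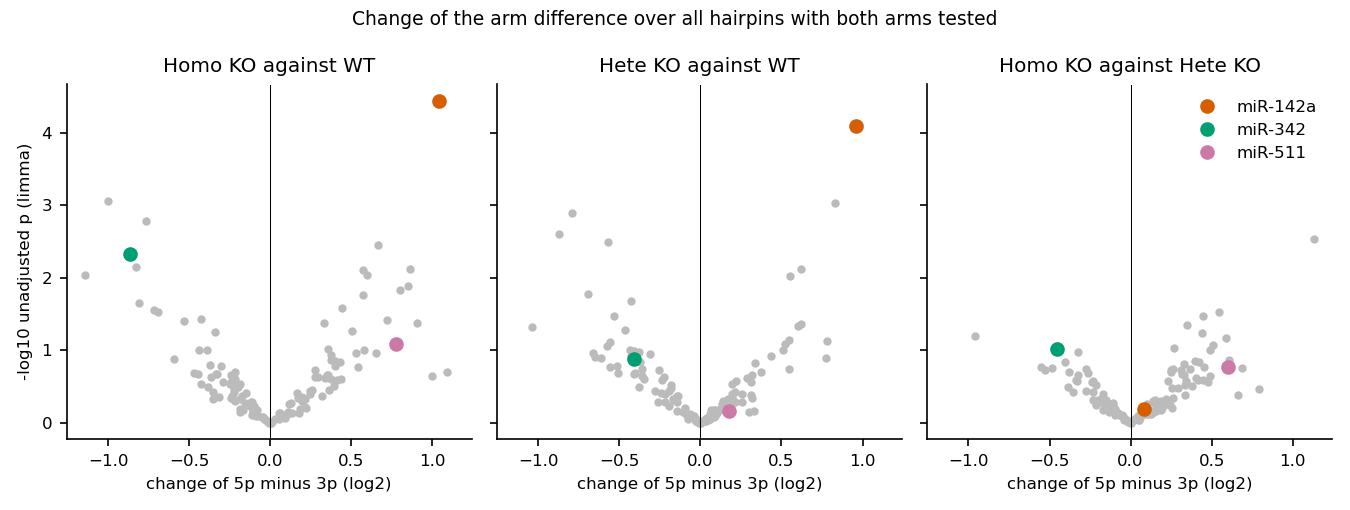
Change of the difference between arms (x axis, log2) and unadjusted limma p (y axis, -log10) for the 141 hairpins in each comparison, 1 point for each hairpin, with miR-142a, miR-342 and miR-511 in color. miR-142a has the highest point in both comparisons with WT, at 1.04 and 0.96, and lies near 0 (0.08) between the knockouts.

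Over the 9 libraries the arms of miR-342 moved together, with a Pearson r of 0.858 and a Spearman rho of 0.854 (exact permutation of the pairings, two-sided p = 0.00391 and 0.00536, adjusted p = 0.0117 and 0.0161 over 3 hairpins). Without WT replicates 1 and 2, the libraries farthest from the median of the 5p arm, r was 0.714. The arms of miR-142a had an r of 0.572 and a rho of 0.629 (exact permutation p = 0.071 and 0.0747, adjusted p = 0.106 and 0.112). Without Hete KO replicate 2 and Homo KO replicate 2 that r was 0.281, so it rests on those libraries. The permutations ignored genotype, so their p also takes in shifts between genotypes that both arms share. Taken as deviations from the genotype means, the arms had an r of 0.889 for miR-142a and 0.844 for miR-342, given without a test. Without Hete KO replicate 2, a choice made after seeing the data, these were 0.264 and 0.868 over 8 libraries, so the value of miR-142a rests on that library and that of miR-342 does not. For miR-511 r was 0.234 and rho 0.025 (exact permutation p = 0.544 and 0.958, adjusted p = 0.544 and 0.958), and r was -0.10 without Hete KO replicate 2 and Homo KO replicate 2.

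miR-511, from the mannose receptor gene, is typical of tissue macrophages. miR-511-3p was at 7.75, 7.95 and 7.66 in WT, at 7.61, 7.23 and 7.61 in Hete KO and at 7.48, 7.43 and 7.98 in Homo KO. The Hete KO mice were just below the WT mice without overlap, and the Homo KO mice spanned them, with log2 fold changes of -0.30 ± 0.19 and -0.15 ± 0.19 (SE, limma, adjusted p = 0.481 and 0.632). miR-511-5p, the rarer arm, was at 4.36, 4.03 and 4.91 in WT, at 4.33, 3.42 and 5.17 in Hete KO and at 4.59, 5.45 and 5.14 in Homo KO, and all 3 genotypes overlapped. Its log2 fold change was 0.62 ± 0.46 for Homo KO against WT (adjusted p = 0.434). The difference between the arms of miR-511 changed by 0.77 ± 0.41 in Homo KO (limma over the 141 hairpins, adjusted p = 0.446) and by 0.18 ± 0.41 in Hete KO (adjusted p = 0.975).

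miR-150-5p, which is abundant in mature lymphocytes, was at 12.09, 12.02 and 12.73 in WT, at 12.09, 12.44 and 12.58 in Hete KO and at 13.27, 12.92 and 12.77 in Homo KO. The 3 Homo KO mice were above all others, although WT replicate 3 came within 0.1 of the lowest of them. The log2 fold change for Homo KO against WT was 0.71 ± 0.22 (SE, limma, adjusted p = 0.114). It passed without WT replicate 3 (0.94, adjusted p = 0.0454) and with sample weights (0.70, adjusted p = 0.0367), and it was 0.26 without the 3 libraries highest in muscle miRNAs (adjusted p = 0.709). Its other arm, miR-150-3p, was at 5.36 ± 0.24 in WT, 5.40 ± 0.08 in Hete KO and 5.42 ± 0.79 in Homo KO (SD, n = 3 mice each).

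miR-223-3p, of granulocytes and monocytes, was at 11.98, 11.71 and 12.44 in WT, at 12.73, 11.98 and 12.16 in Hete KO and at 12.48, 12.16 and 12.16 in Homo KO, and all 3 genotypes overlapped. The log2 fold changes against WT were 0.23 ± 0.24 in Homo KO and 0.25 ± 0.24 in Hete KO (SE, limma, adjusted p = 0.563 and 0.667). The arms of miR-223 kept almost the same distance, -6.11 ± 0.19 in WT, -6.13 ± 0.16 in Hete KO and -6.20 ± 0.32 in Homo KO (5p minus 3p, log2, SD, n = 3 mice each). The change of that distance in Homo KO was -0.09 ± 0.22 (SE).

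The pair of miRNAs that respond to inflammatory signals also overlapped between all genotypes. miR-155-5p, which is induced on activation of macrophages and lymphocytes, was at 10.73, 10.15 and 10.32 in WT, at 10.03, 10.01 and 10.36 in Hete KO and at 10.28, 10.28 and 10.45 in Homo KO, with a log2 fold change of -0.07 ± 0.18 for Homo KO against WT (SE, limma, adjusted p = 0.813). miR-146a-5p, which is induced by NF-kB and restrains its signaling, was at 12.38, 12.63 and 12.02 in WT, at 12.63, 12.02 and 12.09 in Hete KO and at 12.80, 12.58 and 12.38 in Homo KO, with 0.24 ± 0.21 (adjusted p = 0.49). miR-155-3p and miR-146a-3p, their other arms, were too rare to be tested, with group means of at most 0.82 and 1.40.

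For Hete KO against WT no member was called (limma, 0 of 10, against 0.409% of all 489). An unadjusted p under 0.05 was found for 2 of the 10, miR-342-5p and miR-342-3p, against 77 of all 489, so that count is close to the background. Groups did not overlap for 2 of the 10, miR-342-5p and miR-511-3p, against 17.2% of all tested miRNAs. The log2 fold change of miR-342-5p was -1.25 ± 0.29 (SE, adjusted p = 0.0762), and it passed without Hete KO replicate 1 (-1.48, adjusted p = 0.0365) and with sample weights (-1.46, adjusted p = 0.017). Over 20 alternatives it ranged from -1.48 to -0.90. The log2 fold change of miR-342-3p was -0.84, and without Hete KO replicate 1 it passed too (-1.20, adjusted p = 0.0421). miR-142a-5p had 0.46 ± 0.25 and miR-142a-3p -0.50 ± 0.27 (adjusted p = 0.397 for each), opposite signs whose difference is the called arm difference given above. Without Hete KO replicate 2 these values were 0.78 and -0.15 (adjusted p = 0.0757 and 0.749). The median over the members was -0.20, and over all tested miRNAs it was -0.02.

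For Homo KO against Hete KO no member was called (limma, 0 of 10, and 0% of all 489, with 41 of the 489 at an unadjusted p under 0.05). Of the members, 3 had an unadjusted p under 0.05, and these same 3 had groups without overlap (30.0%, against 12.3% of all tested miRNAs): miR-142a-5p (0.80 ± 0.25), miR-150-5p (0.62 ± 0.22) and miR-142a-3p (0.72 ± 0.27), all higher in Homo KO (SE, limma, adjusted p = 0.509, 0.509 and 0.593). Their lowest Hete KO library was replicate 2 for both arms of miR-142a and replicate 1 for miR-150-5p. Hete KO replicate 2 had the most muscle miRNA and the most miRNAs at the lowest value (152). Without it the value of miR-142a-5p was 0.48 and that of miR-142a-3p was 0.36. The median over the members was 0.27, and over all tested miRNAs it was 0.04.

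Further miRNAs studied in immune cells but not restricted to them were taken from a list of 18, such as the miR-181 and miR-146b arms, miR-132-3p and the miR-106a cluster. Of these 14 were tested, and none was called in any of the 3 comparisons (limma, against 3.27%, 0.409% and 0% of all tested). An unadjusted p under 0.05 was found for 2 of the 14 in Homo KO against WT, 2 in Hete KO against WT and 0 between the knockouts. Over all 489 tested miRNAs these counts were 117, 77 and 41, so the list did not exceed the background. The miRNAs of the list with such a p are named here although the choice followed from their values. They were miR-132-3p in both comparisons with WT (-0.67 ± 0.18 and -0.68 ± 0.18, adjusted p = 0.0599 and 0.0879), miR-20b-5p in Homo KO (0.60 ± 0.26) and miR-181c-5p in Hete KO (-0.43 ± 0.18, SE). The 2 most abundant members of that list, miR-21a-5p and let-7e-5p, had log2 fold changes of -0.20 ± 0.22 and 0.41 ± 0.19 for Homo KO against WT (SE).

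Markers of other cells in the same tissue were set beside these values. The arms of endothelial miR-126a averaged 16.45 ± 0.19 in WT, 15.93 ± 0.21 in Hete KO and 16.09 ± 0.09 in Homo KO, and 4 erythroid miRNAs averaged 10.69 ± 0.31, 9.97 ± 0.78 and 10.40 ± 0.27 (SD, n = 3 mice each). The 7 epithelial miRNAs averaged 5.82 ± 0.21, 7.06 ± 1.67 and 6.39 ± 0.34. The Hete KO mean rested on replicate 1, at 8.97 against 6.29 and 5.91 in replicates 2 and 3. In Homo KO against WT 6 of the 7 were positive and 1, miR-205-5p, was negative (-0.65). Of the 7, 1 was called higher in Homo KO, miR-203-3p (0.95 ± 0.18, SE, limma, adjusted p = 0.0314), against 3.27% of all tested miRNAs called. Its level was above the rest of the list in every library, and Hete KO replicate 1 was its lowest Hete KO library (12.38). For miR-122-5p, of hepatocytes, 8 mice had levels of 11.71 to 14.99, and WT replicate 1 had 7.48. No marker miRNA of these lists was at the lowest value in all mice of a genotype. The 10 leukocyte miRNAs together averaged 9.85 ± 0.07, 9.59 ± 0.35 and 9.92 ± 0.08. The part of these other cells in the results was not tested.

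The miRNAs whose levels were most like those of the arms were sought among the other 488 tested miRNAs by Pearson r over the 9 libraries, as a description of libraries that share their normalization. For miR-142a-5p they were miR-195a-5p (0.910), miR-3964 (0.904) and miR-30b-5p (0.887), and miR-142a-3p came 85th. For miR-142a-3p they were miR-340-5p (0.951), miR-467e-3p (0.910) and let-7j (0.873), so that the arms had different nearest miRNAs. For miR-342-5p they were miR-154-5p (0.959), miR-221-5p (0.958) and miR-351-5p (0.942), and for miR-342-3p miR-222-3p (0.963), miR-23a-3p (0.933) and miR-221-3p (0.925). Each arm of miR-342 thus had an arm of miR-221 among its 3 nearest, and the other arm of miR-342 came 16th and 15th.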

How the data were processed

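Small RNA of subcutaneous adipose tissue was sequenced from 9 mice; Trizol extraction and Illumina's TruSeq small RNA kit were used, per the labels' protocols. Per the submitters' processing notes the build was mm10. Aligner, counting tool, miRNA annotation and normalization were not given in the sources used here. What the authors deposited are log2 values of 860 mature miRNAs, read from the values as quantile-normalized log2(x + 1), although the file names speak of FPKM, so no pseudocount was added. Quantile normalization hides differences in depth or total miRNA, and makes a value a shared rank level. Groups came from the genotype label, replicate numbers from the titles.

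A miRNA was tested if 3 or more libraries held it above their own lowest value, with a mean of at least 3.46, which is log2(10 + 1). The genotype comparisons used limma 3.58.1 under R 4.3.3 (variance trend, all 9 libraries, no covariate, Benjamini-Hochberg over 489 miRNAs or 141 hairpins, threshold 0.05); the steps were tested on simulated data. Exact permutation tests used scipy 1.17.1. Alternatives (21 in all) were another pseudocount, no or a stricter filter (mean of at least log2(100 + 1)), median centring, repeated quantile normalization, no trend, a block for the replicate number, sample weights, fits to just the groups compared, muscle and depth covariates, and libraries left out.

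Members and lists were chosen with earlier results of these data known. Named were all members and their other arms, the 2 most abundant and any called miRNAs of the second list, the 3 miRNAs nearest by r to each arm of miR-142a and miR-342, and the 3 hairpins with the smallest arm p. The main fits did not pair the mice by replicate number.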

Additional observations from a re-analysis of the deposited data

How the results depend on the processing

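The count of called members in Homo KO against WT, 2, was 1 with the stricter filter, 4 with sample weights, 0 with the muscle covariate, 0 without the 3 libraries highest in muscle miRNAs (WT replicates 1 and 2, Hete KO replicate 2) and 0 with the covariate for miRNAs at the lowest value, and 0 to 2 with 1 library left out. In Hete KO against WT, 0, it was 2 with sample weights, 1 (miR-342-5p, adjusted p = 0.0337) with the replicate block and 0 to 2 with 1 library left out. Hairpins called for the arm difference in Homo KO against WT, 1, were 3 with the stricter filter, 7 with sample weights, 2 with the replicate block, 3 with only the 2 groups compared, 0 without those 3 libraries, 7 with the covariate for miRNAs at the lowest value and 0 to 3 with 1 library left out. In Hete KO against WT, 1, they were 3 with log2(x + 10), 4 with the stricter filter, 0 with no variance trend, 5 with sample weights, 2 with the replicate block, 0 with only the 2 groups compared, 0 without those 3 libraries, 0 with the covariate for miRNAs at the lowest value and 0 to 4 with 1 library left out. Between the knockouts both counts were 0 in all 21 alternatives. Over all miRNAs, the 16 calls in Homo KO ranged from 0 to 74, the 2 in Hete KO from 0 to 34 and the 0 between knockouts from 0 to 4. The hairpin counts are over all tested hairpins. The member counts moved while the calls over all miRNAs moved too, so they do not show a change particular to the members.

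Of 807 values of members and member hairpins under the alternatives, 743 kept their sign and their side of the threshold, 26 lost a call, 10 gained one and 28 changed sign, none of these being a called value. The stricter filter left miR-342-5p and miR-511-5p untested, and the arm differences of miR-342 and miR-511 with them.

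Without the 3 libraries highest in muscle miRNAs the log2 change turned to -0.17 for miR-223-3p and 0.015 for miR-155-5p in Homo KO against WT, to 0.12 for miR-142a-3p, -0.39 for miR-150-5p, 0.34 for miR-146a-5p and -0.11 for the arm difference of miR-511 in Hete KO against WT, and to -0.24 for miR-342-3p between the knockouts. With the covariate for miRNAs at the lowest value it turned to 0.13 for miR-155-5p and 0.042 for miR-511-3p in Homo KO and to 0.48 for miR-511-5p in Hete KO. With sample weights it turned to 0.31 for miR-511-5p in Hete KO and 0.013 for miR-223-3p between the knockouts. With 1 library left out the ranges that crossed 0 were -0.19 to 0.10 for miR-155-5p in Homo KO; -0.038 to 0.32 for miR-150-5p, -0.29 to 0.047 for miR-146a-5p, -0.56 to 0.32 for miR-511-5p and -0.19 to 0.49 for the arm difference of miR-511 in Hete KO; and -0.18 to 0.20 for miR-223-3p, -0.24 to 0.43 for miR-342-3p and -0.027 to 0.25 for miR-511-3p between the knockouts. The cause was not tested.

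Deviations of same-numbered mice from their group means correlated between -0.28 and 0.55 over the tested miRNAs. Those of differently numbered mice correlated between -0.70 and 0.54. These ranges overlap, so whether the replicate numbers pair the mice is not settled. Over all miRNAs, the calls with the replicate block were 25 in Homo KO against WT (16 in the main fit) and 15 in Hete KO against WT (2 in the main fit). With the replicate block the arm difference of miR-142a in Homo KO was 1.04 (adjusted p = 0.0273). Depth is unknown, and 3 mice a group limit precision.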

Other observations

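Among the 141 hairpins, those next to miR-142a by p in the comparison of the arm difference (5p minus 3p, log2) were not called. For Homo KO against WT they were miR-152 (-6.62 ± 0.40 in WT and -7.62 ± 0.30 in Homo KO, SD, n = 3 mice each, limma adjusted p = 0.0622), miR-30d (10.38 ± 0.31 and 9.61 ± 0.23, adjusted p = 0.0779) and miR-139 (5.93 ± 0.14 and 6.60 ± 0.23, adjusted p = 0.124). For Hete KO against WT they were let-7e (10.03 ± 0.34 in WT and 10.86 ± 0.21 in Hete KO, adjusted p = 0.0598), miR-30d (9.59 ± 0.23 in Hete KO, adjusted p = 0.0598) and miR-152 (-7.49 ± 0.19 in Hete KO, adjusted p = 0.0885). Between the knockouts miR-142a came only 99th by p. The 3 hairpins with the smallest p there were miR-181c (limma adjusted p = 0.409), miR-27a and miR-139 (adjusted p = 0.82 for both). miR-152 and miR-30d stood among the first 3 after miR-142a in both comparisons with WT, which share the WT mice.

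miR-150 had the widest spread of its arm difference in Homo KO, at 8.75, 6.91 and 7.04 in replicates 1, 2 and 3, against 6.68 to 7.12 in the 6 other mice. In replicate 1 the 5p arm was at 13.27, the highest value of any member in any library, while the 3p arm, at 4.52, was the lowest of the 9.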
